A study of Mus musculus with 2 samples.

Results

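The 37 genes described here encode the machinery that copies the genome in S phase, the enzymes that supply its nucleotides and the regulators that open it. They were taken by symbol from a deposited table of 36808 genes, and each symbol had exactly 1 row. RNA was sequenced from primary hepatocytes, the parenchymal cells of the liver, which came from C57Bl6 mice and were kept in William E medium with serum, insulin and dexamethasone. One group received the solvent DMSO and the other 1 µM GW3965, a synthetic ligand that activates the liver X receptors (LXR), nuclear receptors for oxysterols. Each group had 1 library, the number of animals behind a library is not given in the sources used here, and no difference below has a replicate check. In the table the second library is called GL. It was taken to be the GW3965 library, the only partner of DMSO in the labels, and that reading is not certain.

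Before a cell can copy its DNA, the origin recognition complex with Cdc6 and Cdt1 loads the ring of Mcm2 to Mcm7 onto origins, a step called licensing. The Dbf4-dependent kinase and cyclin-dependent kinases then recruit Cdc45, GINS and Mcm10, the helicase opens, and the polymerases follow it with their sliding clamp. Many of these genes are transcribed by E2F factors once cyclin D and cyclin E kinases have inactivated the retinoblastoma proteins. Hepatocytes in the adult liver are mostly quiescent, and isolation and culture with insulin are known to push them out of quiescence.

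Levels are FPKM, fragment numbers scaled to transcript length and library size, so they may be compared between genes. Ratios are the log2 of GW3965 over DMSO after 1 was added to each FPKM, which understates differences of genes with low values, and the counts take genes that reached 1 FPKM in GW3965 or DMSO. Of all 36808 genes 11796 reached that minimum, with a median ratio of 0.01, and all 37 replication genes did. The steps between low values placed the depth at about 63400000 fragments for DMSO and 78800000 for GW3965. The hepatocyte marker Alb (albumin) stood at 7244 FPKM in DMSO and, like Trf, was listed at 0 in GW3965 as a locus marked for holding too many fragments, which is a failed estimate. Other defining markers differed widely in level, with Apoa1 (apolipoprotein A-I) at 598 FPKM in DMSO and 660 in GW3965. The 9 hepatocyte markers at the minimum FPKM, without Alb and Trf, had a median level of 138 FPKM in DMSO and 99.9 in GW3965. The lowest of these were Cps1, with 1.497 FPKM in DMSO and 2.098 in GW3965, and Cyp2e1, with 6.53 and 6.90. Tat, a tyrosine aminotransferase of mature hepatocytes, was below 1 FPKM in both libraries.

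Replication and S phase genes were lower in the GW3965 library in 35 of 37 cases, against 47.1% of all genes at the minimum FPKM. The amounts were mostly small, with a median ratio of -0.25, a lowest of -0.99 and a highest of 0.18. At least 1.5-fold lower were 4 of the 37 (Rrm2, Cdc6, Ccne2 and Uhrf1), against 1.33% of all genes. None was at least 1.5-fold higher (0 of 37), against 1.02% of all genes. At a threshold of 1.2-fold the counts were 18 lower and 0 higher, against 7.71% and 6.09% of all genes. At 2-fold they were 0 and 0, against 0.466% and 0.331%. Without the pseudocount the DMSO level was 2.16 times the GW3965 level for Rrm2, 2.13 times for Cdc6 and 2.06 times for Ccne2. Genes whose DMSO level lay within the range of the 37, from 1.17 to 89.6 FPKM, were below 0 in 47.6% of cases and at least 1.5-fold lower in 1.3%. In bulk RNA, fewer cells in S phase and less of each transcript per cell cannot be told apart.

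**Figure D1:**
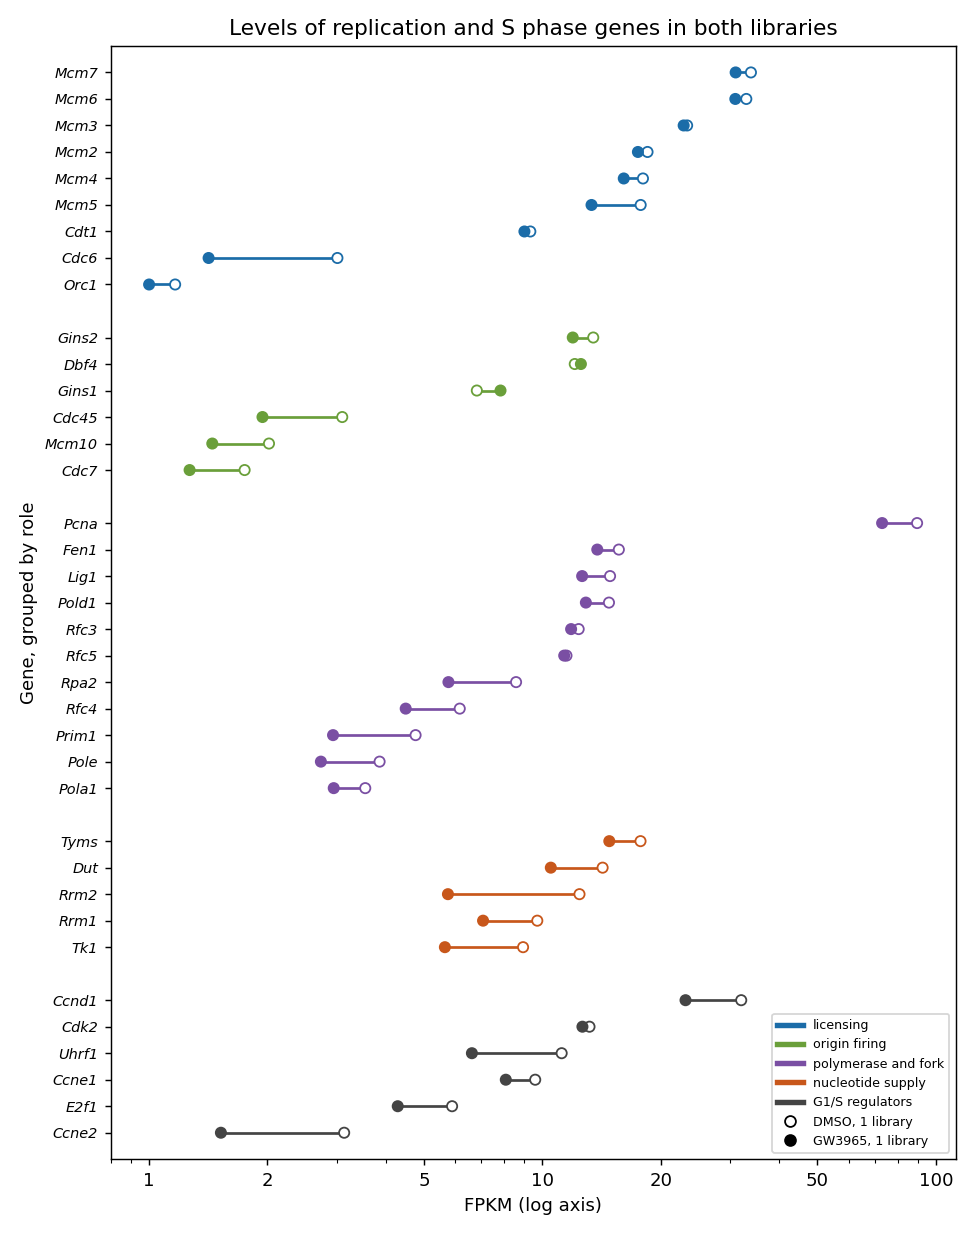
FPKM of the 37 genes on a log axis, grouped by role, with DMSO as open and GW3965 as filled circles (1 library each) joined by a line. The filled circle lies to the left for all but Dbf4 and Gins1, and the lines are short for Mcm2, Mcm3, Mcm6 and Mcm7 and long for Rrm2, Cdc6 and Ccne2.

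Promoter windows are shown first for the lowest ratios and for a pair of helicase ring genes, because many of these genes are known E2F targets and their ratios were unequal. RefSeq windows on GRCm38.p6, from 250 bases before to 50 after the annotated start, were found for 31 of the 37 genes and not for Pole, Ccnd1, Gins1, Mcm4, Ccne2 and Gins2. The windows below belong to the 3 genes that were at least 1.5-fold lower and have a window, and to Mcm3 and Mcm6, at -0.03 and -0.09, which were picked after their ratios and their E2F words were seen. Dbf4 and Rfc5, at 0.05 and -0.02, held no E2F word. Rrm2 lies at chr12:24708004-24708303 (plus strand), Cdc6 at chr11:98907901-98908200 (plus), Uhrf1 at chr17:56303087-56303386 (plus), Mcm3 at chr1:20820263-20820562 (minus) and Mcm6 at chr1:128359656-128359955 (minus). Each is printed 5′ to 3′ along its gene, and capitals mark the E2F words TTTGGCGC, TTTCCCGC, TTTCGCGC and TTTGCCGC and the word CCAAT, on either strand.
Rrm2: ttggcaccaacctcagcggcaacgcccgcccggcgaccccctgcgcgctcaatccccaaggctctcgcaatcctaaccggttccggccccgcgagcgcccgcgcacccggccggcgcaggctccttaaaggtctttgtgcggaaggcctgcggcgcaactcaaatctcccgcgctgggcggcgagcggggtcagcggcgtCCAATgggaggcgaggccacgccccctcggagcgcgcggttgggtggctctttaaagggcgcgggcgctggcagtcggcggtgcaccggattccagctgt
Cdc6: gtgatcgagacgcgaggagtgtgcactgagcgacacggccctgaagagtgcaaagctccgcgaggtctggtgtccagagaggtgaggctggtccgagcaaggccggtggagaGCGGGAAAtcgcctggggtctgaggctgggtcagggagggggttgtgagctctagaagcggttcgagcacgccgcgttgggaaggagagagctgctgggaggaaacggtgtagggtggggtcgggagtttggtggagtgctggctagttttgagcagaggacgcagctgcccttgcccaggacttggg
Uhrf1: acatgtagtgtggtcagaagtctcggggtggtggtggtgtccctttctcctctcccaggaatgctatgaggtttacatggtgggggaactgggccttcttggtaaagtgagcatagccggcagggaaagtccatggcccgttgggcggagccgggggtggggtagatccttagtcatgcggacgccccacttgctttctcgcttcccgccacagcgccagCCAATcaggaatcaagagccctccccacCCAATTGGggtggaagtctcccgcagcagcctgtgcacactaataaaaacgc
Mcm3: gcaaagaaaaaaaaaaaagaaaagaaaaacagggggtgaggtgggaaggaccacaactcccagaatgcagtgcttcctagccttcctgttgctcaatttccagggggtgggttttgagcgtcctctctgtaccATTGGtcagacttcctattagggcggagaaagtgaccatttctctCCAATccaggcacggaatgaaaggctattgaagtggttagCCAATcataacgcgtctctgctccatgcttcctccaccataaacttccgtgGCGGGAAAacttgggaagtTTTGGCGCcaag
Mcm6: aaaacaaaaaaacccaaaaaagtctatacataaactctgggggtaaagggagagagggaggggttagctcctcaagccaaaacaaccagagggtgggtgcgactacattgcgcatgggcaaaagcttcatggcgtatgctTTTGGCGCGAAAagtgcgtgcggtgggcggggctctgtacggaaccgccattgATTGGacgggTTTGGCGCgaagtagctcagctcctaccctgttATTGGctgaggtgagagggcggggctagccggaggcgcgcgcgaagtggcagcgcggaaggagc

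The window of Rrm2 held CCAAT at -50 to -46 from the start and none of the E2F words. In Cdc6 the E2F word TTTCCCGC stood on the opposite strand at -138 to -131. Uhrf1 had CCAAT at -30 to -26 and a pair on opposite strands that overlap at the start itself, and a second annotated window of Uhrf1 held an E2F word. In Mcm3 both E2F words lay just after the start, at 20 to 27 and 39 to 46, with 3 CCAAT words upstream. Mcm6 had TTTGGCGC at -110 to -103, overlapped by TTTCGCGC on the other strand at -106 to -99, and TTTGGCGC again at -47 to -40.

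An E2F word was found in 13 of the 31 genes (41.9%), counting a gene once if any of its windows held it. The share was 4.82% of 8187 genes at the minimum FPKM and 2.60% of all 27025 genes with a window. CCAAT was in 17 of 31 (54.8%), against 43.0% of genes at the minimum FPKM and 41.1% of all genes. By role, E2F words were found for 7 of 8 licensing genes with a window, 4 of 10 polymerase and fork genes, 2 of 4 G1/S regulators, 0 of 4 origin firing genes and 0 of 5 nucleotide supply genes. The 13 genes with a word had a median ratio of -0.13 (from -0.73 to -0.03) and the 18 without one -0.34 (from -0.99 to 0.05). Low ratios occurred on both sides, with Cdc6 and Uhrf1 among the genes with a word and Rrm2 and Tk1 among those without. A word found or not found describes this window only.

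**Figure D2:**
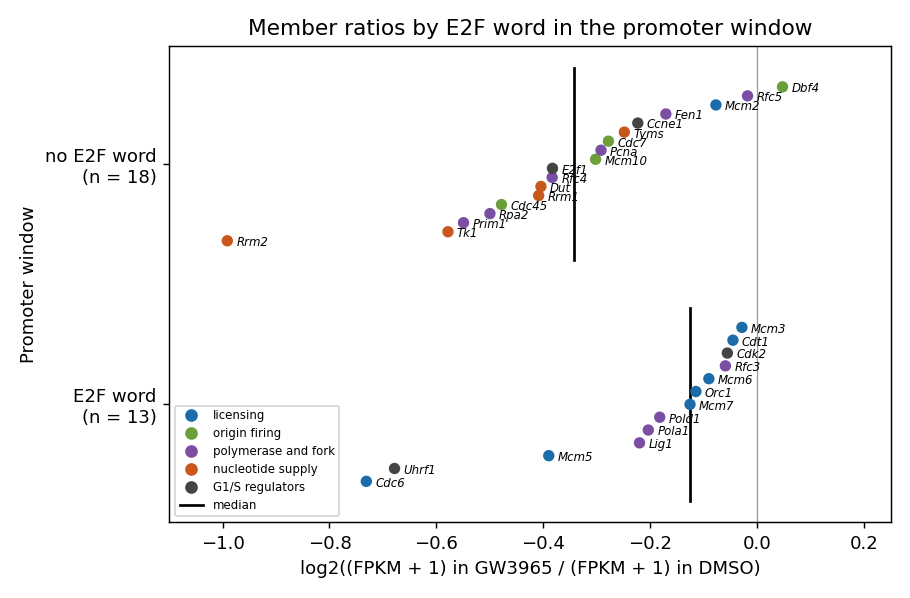
Ratio of each of the 31 genes with a promoter window, split by whether an E2F word was found and coloured by role, with the median of each row as a black line. The medians are -0.13 with a word and -0.34 without, and the licensing genes fill most of the row with a word.

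Licensing genes had small ratios, apart from Cdc6 and Mcm5. All 9 were below 0 and 1 was at least 1.5-fold lower, against 47.1% and 1.33% of all genes, with a median ratio of -0.11. Cdc6 is the short-lived ATPase that brings the helicase ring to the origin (ENSMUSG00000017499, chromosome 11, 98769115 to 98785254, mm9). Its level was 3.01 FPKM in DMSO and 1.42 in GW3965, a ratio of -0.73. Without the pseudocount that is 47.1% of the DMSO level, and counting alone gives the FPKM ratio an exact 95% interval of 0.403 to 0.548. The difference between these libraries was thus larger than counting error, which leaves out any difference between cultures. Cdt1, which loads the ring together with Cdc6, had 9.32 and 9.003 FPKM (-0.04). Orc1, the largest subunit of the origin recognition complex, was the lowest-expressed of all 37, with 1.17 FPKM in DMSO and 1.00 in GW3965 (-0.11).

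The 6 subunits of the helicase ring had a median ratio of -0.11, with 5 of them between -0.15 and -0.03 and Mcm5 lower. Their DMSO levels spanned 1.91-fold, from 17.8 FPKM for Mcm5 to 33.9 for Mcm7, and their GW3965 levels 2.32-fold. Mcm3 had 23.3 FPKM in DMSO and 22.9 in GW3965 (-0.03). Mcm2 had 18.5 and 17.5 (-0.08), and Mcm6 had 33.0 and 30.9 (-0.09). The ring is built of all 6 subunits, and these 3 transcripts differed by under 1.2-fold between the libraries. Mcm7 had 33.9 and 31.0 (-0.13) and Mcm4 had 18.0 and 16.1 (-0.15). Mcm5 stood apart from the other subunits at 17.8 FPKM in DMSO and 13.3 in GW3965 (-0.39), with a counting interval of 0.710 to 0.792 for the FPKM ratio. For Mcm2 the interval was 0.905 to 0.988.

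Origin firing genes were mixed. Of the 6, 4 were below 0 (against 47.1% of all genes) and 2 above, none (0) passed 1.5-fold, and the median was -0.22. The 3 of them with a level of at least 5 FPKM had a median of 0.05, so the direction of this role depends on its low genes. Cdc45, which joins the Mcm ring to form the active helicase, had 3.10 FPKM in DMSO and 1.94 in GW3965 (-0.48). Mcm10, a scaffold of helicase activation, had 2.02 and 1.45 (-0.30). Cdc7, the kinase that phosphorylates the ring, had 1.75 and 1.27 (-0.28), while its activator Dbf4 had 12.1 and 12.5 (0.05). The Cdc7 level was therefore 0.145 times that of Dbf4 in DMSO and 0.101 times in GW3965. GINS links the helicase to the leading-strand polymerase. Its subunits Gins1 and Gins2 stood on opposite sides of 0, each by less than its error, given below. Gins1 stood at 6.81 FPKM in DMSO against 7.83 in GW3965 (0.18), the highest ratio of the 37, with a counting interval of 1.01 to 1.31. Gins2 had 13.5 and 11.9 (-0.16), but the table places it in a merged locus of 152 genes that also holds Cdt1.

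Polymerase and fork genes were all below 0 (11 of 11), against 47.1% of all genes. None (0) was 1.5-fold lower, against 1.33%, and the median ratio was -0.22. Primase and polymerase alpha make the RNA-DNA primers of each Okazaki fragment. Prim1, the catalytic primase subunit, stood at 4.76 FPKM in DMSO against 2.94 in GW3965 (-0.55), and Pola1, the catalytic subunit of polymerase alpha, had 3.55 and 2.95 (-0.20). The Prim1 level was 1.34 times that of Pola1 in DMSO and 0.996 times in GW3965. Pole, the leading-strand polymerase, had 3.86 and 2.74 (-0.38), and Pold1, the lagging-strand polymerase, had 14.8 and 12.9 (-0.18).

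Pcna, the sliding clamp that tethers the polymerases, was the most abundant of the 37, with 89.6 FPKM in DMSO and 73.0 in GW3965 (-0.29). About 7720 and 7816 fragments lay behind these values, and the counting interval of the FPKM ratio was 0.789 to 0.841. Of the clamp loader subunits, Rfc4 had 6.17 and 4.49 FPKM (-0.38). Rfc3 had 12.4 and 11.8 (-0.06) and Rfc5 had 11.5 and 11.4 (-0.02). Rfc4 had the lowest ratio of these subunits, with a wide error in the authors' table that is given below. Rpa2, a subunit of the single-strand binding protein, had 8.57 and 5.77 FPKM (-0.50). Fen1, the flap nuclease that trims Okazaki fragments, had 15.6 and 13.8 (-0.17), and Lig1, the ligase that joins them, had 14.9 and 12.6 (-0.22).

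Nucleotide supply genes were lower as a group. All 5 were below 0, 1 by at least 1.5-fold and 4 by at least 1.2-fold, against 47.1%, 1.33% and 7.71% of all genes. The median ratio was -0.41. Rrm2 encodes the small subunit of ribonucleotide reductase, which makes deoxyribonucleotides and whose amount limits the enzyme in S phase (ENSMUSG00000020649, chromosome 12, 25393106 to 25399011, mm9). Its level was 12.4 FPKM in DMSO and 5.75 in GW3965, which gives the lowest ratio of the 37 at -0.99. The GW3965 level was 46.3% of the DMSO level, with a counting interval of 0.399 to 0.538. Rrm2 alone of the 37 was called in the authors' deposited table, which lists q = 0.0061 and p = 1.06e-05, and which calls 0.144% of genes at the minimum FPKM as lower. The large subunit Rrm1 had 9.71 and 7.07 FPKM (-0.41). Rrm2 thus stood at 1.28 times the level of Rrm1 in DMSO and at 0.814 times in GW3965.

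The other 3 act on thymidine and uridine nucleotides. Tk1, the cytosolic thymidine kinase of the salvage route, had 8.93 FPKM in DMSO and 5.65 in GW3965 (-0.58), just short of 1.5-fold on this scale. Dut, the dUTPase that keeps uracil out of DNA, had 14.2 and 10.5 (-0.40). Tyms, the thymidylate synthase of the de novo route, had 17.8 and 14.8 (-0.25), the least of the 5.

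Among the G1/S regulators all 6 were below 0, 2 by at least 1.5-fold, against 47.1% and 1.33% of all genes. Their median ratio was -0.42. Cyclin E activates Cdk2 at the entry to S phase, and the paired cyclins differed in size of ratio. Ccne2 stood at 3.14 FPKM in DMSO against 1.52 in GW3965 (-0.71), and Ccne1 had 9.59 and 8.07 (-0.22). Cdk2, their kinase partner, had 13.2 and 12.6 (-0.06). Ccne2 thereby went from 0.327 times to 0.189 times the level of Ccne1. However, Ccne2 shares its locus with another gene, and its error, given below, is wider than its fold. Uhrf1, which guides maintenance DNA methylation to newly copied DNA and was placed here as an E2F target, had 11.2 and 6.62 FPKM (-0.68) and a counting interval of 0.490 to 0.717. E2f1, the activator of the S phase programme, had 5.90 and 4.29 (-0.38). Ccnd1, the cyclin through which growth factors act in G1, had 32.02 and 23.1 (-0.45).

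**Figure D3:**
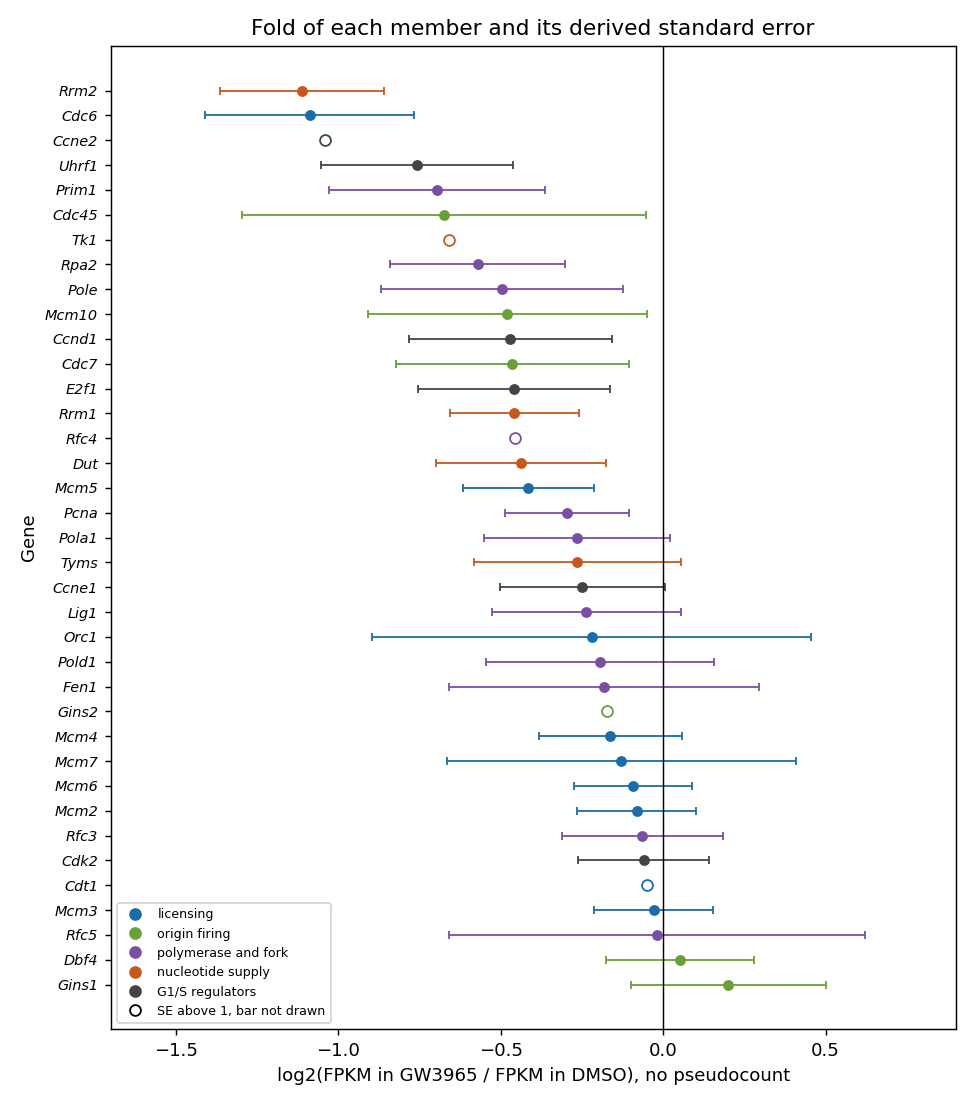
Log2 ratio of the FPKM values without a pseudocount for each of the 37 genes, coloured by role, with bars of 1 standard error (SE) on each side derived from the authors' deposited table. Open circles mark the 5 genes with an SE above 1, whose bars are not drawn, and the bar of Rrm2 is the farthest from 0 relative to its length.

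The standard errors that follow from the authors' deposited table, as the size of the log2 fold over that of the test score, had a median of 0.30 over the 37 genes. In the authors' deposited table p was under 0.05 for 7 of them (Rrm2, Cdc6, Uhrf1, Rrm1, Rpa2, Prim1 and Mcm5), all lower, against 1.71% of all genes at the minimum FPKM that were lower with such a p. The authors' deposited table lists q = 0.145 for Cdc6 and q = 0.771 for Uhrf1, and 1.00 for the rest of the 37 other than Rrm2. That test on the reads of a pair of libraries compares those libraries and not the conditions. Counting error alone was smaller: the counting interval of the FPKM ratio lay below 1 for 27 of the 37 and above 1 for 1 (Gins1). No share over all genes stands beside these counts, so they do not set the 37 genes apart. These intervals used fragment numbers estimated at the shortest coding transcript, from 132 to 7720 in DMSO and from 103 to 7816 in GW3965.

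Errors were largest where the table merges several genes into 1 locus. The 22 genes alone at their locus had a median SE of 0.25 and a highest of 0.43, derived from the authors' deposited table. For the 15 that share a locus the median SE was 0.62, with 4.76 for Cdt1 and 43.4 for Gins2, 2.37 for Ccne2, 1.17 for Rfc4 and 1.11 for Tk1. These 5 errors are wider than the folds they belong to. So are those of some genes alone at their locus, such as Gins1 (SE 0.30, log2 fold 0.20) and Dbf4 (0.23, 0.05). For others, such as Rrm2 (0.25, -1.11), the error is smaller than the fold. Some of the lower genes had a well expressed neighbour at the same locus that stood closer to 0 or above it. The examples were picked after the values were seen. Oraov1, beside Ccnd1, had 14.3 FPKM in DMSO and 13.1 in GW3965 (-0.13). Ints8, beside Ccne2, stood at 14.6 FPKM in DMSO against 15.8 in GW3965 (0.10), and Syngr2, beside Tk1, had 69.6 and 72.7 (0.06). The less expressed Afmid, also beside Tk1, was lower as well, with 6.24 and 5.11 (-0.25). Ufd1l, beside Cdc45, had 27.8 and 29.8 (0.10), and Eif4a2, beside Rfc4, had 93.5 and 86.6 (-0.11). Among the 22 genes alone at their locus 20 were below 0, against 47.7% of all genes alone at theirs. Of the 22, 3 were at least 1.5-fold lower, against 1.33% of all genes.

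Shared sequence limits some values. More than 10% of the 25-base words in the annotated transcripts of 13 of the 37 genes also occur in transcripts of other genes, so their reads may have been split. The share was 80.6% for Fen1, mostly with Gm10143 (3.67 FPKM in DMSO and 3.08 in GW3965), and 66.5% for Gins2, mostly with Gse1. It was 28.2% for Uhrf1, mostly with Gm5648, which was listed at 0 in both libraries. For Pcna it was 25.1%, all with Pcna-ps2 at 0.126 and 0.0606 FPKM. Rrm2 shared 16.9%, Ccne2 16.0% and Cdc6 11.3%.

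Low-expressed genes of the 37 stood lower than abundant ones. The 9 with under 5 FPKM in DMSO had a median ratio of -0.38, the 18 from 5 to 15 FPKM -0.22 and the 10 with 15 FPKM or more -0.16. The DMSO value enters both the band and the ratio. Over all genes the same bands had medians of -0.02, 0.01 and 0.03. Summed over the 37 genes the level was 521 FPKM in DMSO and 435 in GW3965, of which Pcna was the largest part.

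Of 73 other replication and S phase genes 72 had a row, of which 56 were below 0 at any level, with a median ratio of -0.14. Of all genes at any level 27.4% were below 0 (a share lowered by genes at 0 in both libraries), with a median ratio of 0. At the minimum FPKM, 53 of 69 were below 0 and 16 above, 2 were at least 1.5-fold lower and 0 higher, and the median was -0.12. Of all genes at that minimum 47.1% were below 0, 1.33% at least 1.5-fold lower and 1.02% at least 1.5-fold higher. Of these 69, 4 passed the minimum through DMSO alone, which favours lower ratios. Among the 65 at 1 FPKM in both libraries 49 were below 0 and 1 was at least 1.5-fold lower. All 37 genes described above reached 1 FPKM in both libraries. Clspn, which couples the fork to the checkpoint kinase, had 1.75 FPKM in DMSO and 0.670 in GW3965 (-0.72). Chaf1b, a subunit of the assembly factor that places histones on new DNA, had 6.56 and 3.92 (-0.62). Both passed 1.5-fold, and Clspn and E2f8 entered through DMSO alone. E2f8, an E2F repressor, had 1.61 and 0.819 (-0.52). Rpa3, the partner of Rpa2, had 11.4 and 8.32 (-0.41), and Samhd1, which degrades deoxyribonucleotides, had 19.3 and 14.4 (-0.40). Ticrr had no row in the table, and Cdkn1c, E2f2 and E2f7 were under the minimum.

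Mitosis and G2/M genes, which act after replication, were below 0 in 35 of 35 cases at any level, with a median ratio of -0.33. Of all genes at any level 27.4% were below 0 (a share lowered by genes at 0 in both libraries), with a median ratio of 0. At the minimum FPKM there were 28, all below 0, with a median of -0.40 and 6 at least 1.5-fold lower. Of all genes at that minimum 47.1% were below 0 and 1.33% at least 1.5-fold lower. But 7 of the 28 passed through DMSO alone, Ttk and Ndc80 included. Among the 21 at 1 FPKM in both libraries the median was -0.40, and 4 were at least 1.5-fold lower. Ube2c, the ubiquitin-conjugating enzyme of the anaphase-promoting complex, stood at 3.02 FPKM in DMSO and 1.22 in GW3965 (-0.86), and Birc5, the survivin of the chromosomal passenger complex, had 4.19 and 2.21 (-0.69). Top2a, the topoisomerase that untangles chromosomes, had 5.82 and 2.87 (-0.82), and Cdk1, the mitotic kinase, had 10.3 and 5.998 (-0.69). The spindle checkpoint kinase Ttk had 1.14 and 0.361 (-0.65), and the kinetochore gene Ndc80 had 1.23 and 0.461 (-0.61). Their levels were lower than those of the replication genes, with a median of 2.33 FPKM in DMSO against 11.5. Of 22 such genes with a window, 1 held an E2F word (4.55%) and 18 held CCAAT (81.8%). Whether the ratios of either list differ from those of the 37 genes was not tested, since there is 1 library per group.

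**Figure D4:**
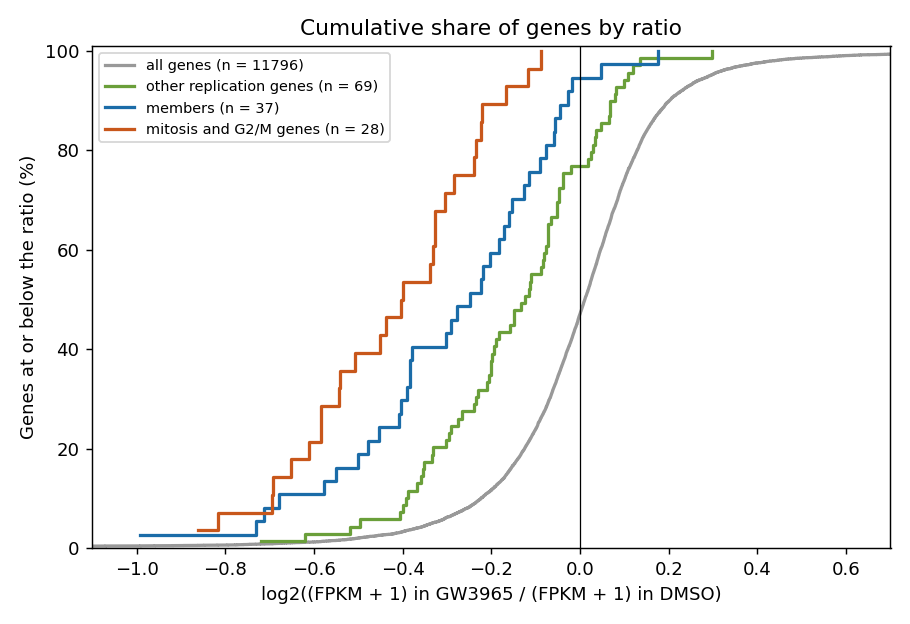
Cumulative share of genes by log2 ratio for all 11796 genes at the minimum FPKM, the 37 replication and S phase genes, 69 other replication genes and 28 mitosis and G2/M genes. The curve of the 37 genes crosses 0 at 94.6% and lies between those of the other replication genes and the mitosis genes for most of its course, against 47.1% for all genes.

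Markers of other cell types that such cultures can hold differed as follows, while 47.1% of all genes at the minimum FPKM were below 0. Macrophage markers were below 0 in 7 of 10 cases with a median ratio of -0.14, and their summed level was 248 FPKM in DMSO and 246 in GW3965. Most of that sum was Cd14 (111 and 99.3, -0.16) and Cd68 (74.9 and 93.9, 0.32). Of the others C1qa (-0.35), C1qc (-0.32) and Lyz2 (-0.31) were the lowest and Cd5l (0.32) the highest. Endothelial markers were above 0 in 8 of 9 cases (median 0.11, summed 222 and 250 FPKM). The exception was Clec4g, a lectin of liver sinusoids, at 2.14 and 0.996 FPKM (-0.66). Stellate and fibroblast markers were above 0 in 7 of 9 cases (0.15, 91.7 and 97.8 FPKM). Of the cholangiocyte markers, summed 4150 and 3394 FPKM, Spp1 made up nearly all with 4131 and 3373 (-0.29). Sox9 stood at 0.07 and Krt19 at 0.27, with Krt7 at 0.0604 and 0.0775 FPKM. Of the lymphoid and granulocyte markers 1 of 9 reached the minimum, with Ly6g listed at 0 in both libraries and S100a9 in DMSO, and of the erythroid markers 0 of 5 did. Hepatocyte markers at the minimum, without Alb and Trf, had a median of -0.12 with 5 of 9 below 0. Among these were Serpina1a at -0.46 and the transcription factor Hnf4a at -0.39. The 4 above 0 were Cps1 at 0.31, Apoa1 at 0.14, Ass1 at 0.13 and Cyp2e1 at 0.07. With Tat, which was under the minimum (-0.44), 6 of 10 were below 0. The part of these cells in the lower replication genes was not tested.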

How the data were processed

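RNA was sequenced from 1 library per group with a TruSeq kit, per the labels. The submitters' processing notes name Cuffdiff, Cufflinks 2.0.2, TopHat2 2.0.6 and CASAVA, and as builds mm9 and NCBIM37. No source used here states settings or strand handling. The deposited FPKM values, p-values, q-values, log2 folds, signed folds and test score (another score of the authors) are named per the file headers.

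The 37 genes, their roles and all lists were chosen with earlier results of these data known. All members were named, and of the other lists the 6 genes with the largest ratios in size, of which 1 is not reported here. Ratios used a pseudocount of 1, a minimum FPKM of 1 and a 1.5-fold threshold. The 7 genes marked for too many fragments were left out, and the 73 with a failed test were kept. With 1 library per group no p-value was computed.

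Depth came from low values: the most frequent DMSO to GW3965 ratio, 1.24, is 1 read against 1 read, and GENCODE M21 lengths less 160 bases set the scale. Exact 95% intervals cover counting error only. Table starts were counted from 0 (58.5% of 19846 single-gene loci then had the GENCODE length), so 1 was added. Promoter windows are RefSeq, GRCm38.p6. The size rule was tested on simulated data. Alternatives were pseudocounts, minimum FPKM, thresholds, centring, scaling, tested genes and, added later, genes alone at their locus. Scripts ran in Python 3.11.15 with matplotlib 3.10.9, scipy 1.17.1, pandas 2.3.3 and numpy 2.4.6.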

Additional observations from a re-analysis of the deposited data

How the results depend on the processing

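The number of genes at least 1.5-fold lower was 4, and it was 7 with a pseudocount of 0.1, 1 with a pseudocount of 5, 2 at a minimum FPKM of 5, 18 at a threshold of 1.2-fold and 0 at 2-fold. With a pseudocount of 5 the medians were -0.16 for the 37 genes, -0.27 for G1/S regulators, -0.11 for origin firing, -0.075 for other replication genes and -0.17 for mitosis genes, which had -0.63 with 0.1. Pseudocounts act by construction on low genes. At a minimum FPKM of 5 origin firing genes turned to 0.048, with 3 genes left, and other replication genes stood at -0.082. Among genes alone at their locus, chosen after the data were seen, 20 of 22 were below 0, against 47.7% of all such genes. Origin firing genes stood at -0.12 there. Of 92 list values under an alternative 77 stayed within 1.5 times, and of 327 single-gene values 299 did and 0 changed sign. For single genes the minimum FPKM and the choice of tested genes return the same value by construction. A pseudocount cannot change a sign, so only centring and scaling could have done so. Part of the 77 list values was fixed as well. All 37 genes reached the minimum FPKM and were tested by the authors. Lifting that minimum or taking tested genes therefore returns the same value for them and their roles. The number of the 37 below 0 cannot change with the pseudocount. No paired analysis was possible because DMSO and GW3965 had a single library each. Fragments estimated at the shortest coding transcript were fewest for Cdc45 (132 in DMSO and 103 in GW3965) and Pole (144 and 127). That order depends on the annotated lengths used, 832 bases for Cdc45 and 747 for Pole. By FPKM the lowest gene was Orc1, at 1.17 in DMSO and 1.00 in GW3965.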
